A study of Arabidopsis thaliana with 4 samples.

Results

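Nuclear genes of chlorophyll synthesis, light harvesting and carbon fixation were followed in inflorescence tips of Arabidopsis thaliana, namely PORB (AT4G27440), LHCB4.1 (AT5G01530), PRK (AT1G32060) and RCA (AT2G39730). They are 4 of 13286 loci with a named probe set on the array, and were chosen by name with earlier results of these data known. Inflorescence tips of the mutant tmm-1 and of the control line Col-3 gl1 were hybridised to Affymetrix ATH1 arrays, with 2 pools of tissue and 2 arrays per line. The line tmm-1 carries a mutation in TMM, a leucine-rich repeat receptor-like protein of stomatal patterning, and the gl1 mutation of the control removes most leaf hairs. The labels do not say whether tmm-1 also carries gl1, nor whether the pools came from separate plants, so p-values may measure technical spread only. Both lines were grown with 16 h of light (125 µmol per square metre and second) at 22 °C and 70% humidity, and tissue was collected at growth stage 6.10.

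All 4 genes are encoded in the nucleus, and their proteins are imported into the chloroplast. PORB is a protochlorophyllide oxidoreductase, which uses light to reduce protochlorophyllide to chlorophyllide late in chlorophyll synthesis. LHCB4.1 encodes a form of CP29, a minor chlorophyll-binding antenna protein that links the outer antenna to the core of photosystem II. PRK, phosphoribulokinase, makes the sugar bisphosphate to which Rubisco adds carbon dioxide, and RCA, Rubisco activase, frees the active sites of Rubisco from bound sugar phosphates. Sepals, carpels and stems of the inflorescence are green tissue.

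Values are MAS5 signals in array units, scaled by the authors to a common trimmed mean. The medians of the tmm-1 arrays were 41.4 and 45.5, against 40.8 and 40.7 for Col-3 gl1. Replicate 2 of tmm-1 stood apart from the other 3 arrays: its 10th percentile was 3.06 against 1.54 to 1.60, and its correlations with them across probe sets, 0.958 to 0.966, were below the 0.974 to 0.979 among those 3. The actin 3' to 5' ratio, a sign of RNA quality, was 2.29 and 2.47 in tmm-1, against 2.25 and 2.39 in Col-3 gl1. Mean signal of the 25S rRNA controls was less even, at 957 and 2542 in tmm-1, against 1743 and 3025 in Col-3 gl1. Its part in the results was not tested. Of 19 listed marker genes of inflorescence and flower identity, 2 had a named probe set. These were CLV3 and UFO, and both stayed under 21.2 on all 4 arrays, the highest signal that a Bacillus control reached.

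PORB signal was lower in tmm-1. It was 622 and 769 in tmm-1 replicates 1 and 2, against 1041 and 1141 in the control arrays. The lines did not overlap, and the brighter tmm-1 array lay well under the dimmer control array. Mean signals were 695 ± 104 in tmm-1 and 1091 ± 71.0 in Col-3 gl1 (SD, n = 2 arrays each), so that tmm-1 stood at 63.7% of the control level. The log2 change was -0.65 ± 0.15 (SE), with a 95% interval of -0.95 to -0.35 and an adjusted p of 0.0278 in limma. PORB was thus called lower, a call being an adjusted p below 0.05 over all 16960 probe sets tested, where 0.371% were called lower, 0.242% higher and 0.613% in all. Among those probe sets it stood 87th by p and had the 267th lowest log2 change.

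The 4 differences between a tmm-1 array and a control array ran from -0.87 to -0.43 in log2 signal for PORB. The call ended after quantile normalization (limma, adjusted p = 0.112), without a filter on dim probe sets (0.353) and without the variance trend (0.535). It also ended without tmm-1 replicate 1 (log2 change -0.50) and without Col-3 gl1 replicate 2 (-0.58). In those fits with an array left out, p-values rest wholly on the variance trend. The log2 change stayed between -0.80 and -0.50 over all alternatives. In tissue of mixed cells, fewer cells of a type and less RNA per cell cannot be told apart.

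**Figure D1:**
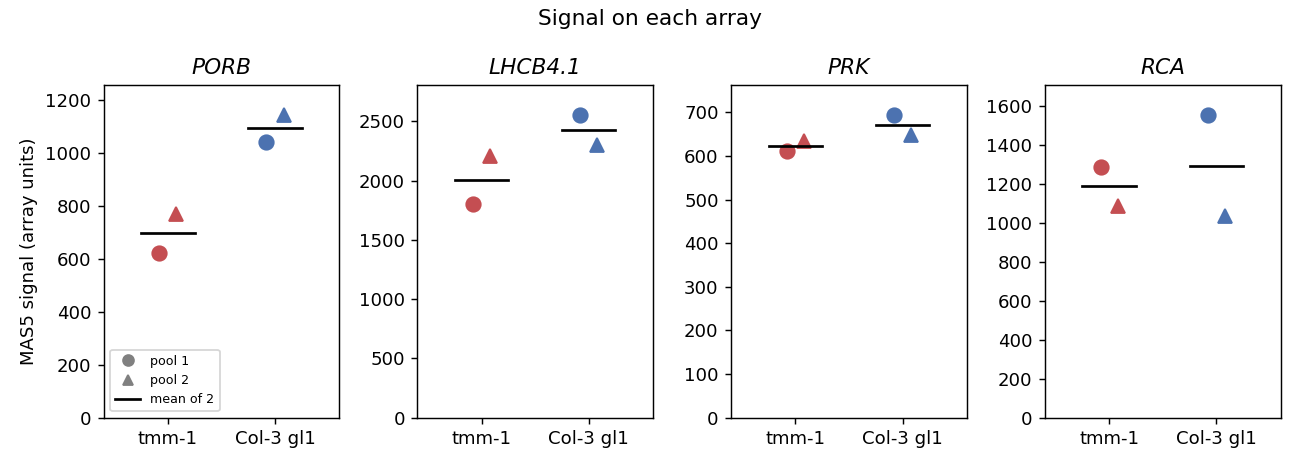
MAS5 signal (y axis, array units, from 0) of PORB, LHCB4.1, PRK and RCA on each array, with tmm-1 in red on the left and Col-3 gl1 in blue on the right. Circles are pool 1, triangles pool 2 and lines the mean of 2 arrays. The lines are apart for PORB, LHCB4.1 and PRK, and the RCA control arrays, at 1555 and 1036, lie on either side of both tmm-1 arrays.

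LHCB4.1, of the CP29 antenna, had a lower mean in tmm-1 that did not pass the test. Its signals were 1800 and 2206 in tmm-1, against 2551 and 2297 in the control. The lines did not overlap, but the gap between the nearest arrays was small beside the gap between the tmm-1 replicates. Means were 2003 ± 286 in tmm-1 and 2424 ± 179 in Col-3 gl1 (SD, n = 2 each). The log2 change was -0.28 ± 0.14 (limma, adjusted p = 0.597), and its 95% interval ran from -0.57 to 0.01. Leaving out tmm-1 replicate 1 brought it to -0.13, and leaving out tmm-1 replicate 2 to -0.43.

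The other named genes of the CP29 family gave values nearer 0. LHCB4.2 had 2085 and 1584 in tmm-1, against 1860 and 1868 in the control (log2 change -0.04 ± 0.15). LHCB4.3 had 448 and 310 in tmm-1, against 353 and 397 in the control (log2 change -0.01 ± 0.16). For both genes the tmm-1 arrays lay on either side of the control arrays, with replicate 1 the higher. LHCB4.1 had the opposite order of replicates in tmm-1. The log2 ratio of LHCB4.1 to LHCB4.2 on the same array was -0.21 and 0.47 in tmm-1, against 0.45 and 0.30 in Col-3 gl1, which left the lines overlapping. Cross-hybridisation between these paralogs was not tested.

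PRK, of the carbon fixation cycle, varied least between arrays. Its signals were 612 and 635 in tmm-1, against 694 and 649 in the control. Both tmm-1 arrays were under both control arrays, by a narrow margin. Means were 623 ± 16.4 in tmm-1 and 671 ± 31.6 in Col-3 gl1 (SD, n = 2 each), with a log2 change of -0.11 ± 0.14 (limma, adjusted p = 0.894). Its 95% interval ran from -0.40 to 0.18.

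RCA varied most within the control line. Its signals were 1288 and 1090 in tmm-1, against 1555 and 1036 in the control, so both tmm-1 arrays fell between the control arrays. Control replicate 1 was 1.501-fold control replicate 2. On the log2 scale, 7.49% of all tested probe sets had a larger difference between the control replicates. Among the 913 tested probe sets at least as bright as the dimmest of the 4 genes, 1.095% had a larger one. Means were 1189 ± 140 in tmm-1 and 1296 ± 367 in Col-3 gl1 (SD, n = 2 each). The log2 change, -0.10 ± 0.16, did not pass the test (limma, adjusted p = 0.917), with a 95% interval of -0.43 to 0.23. Its sign followed which array was left out, at -0.39 without Col-3 gl1 replicate 2, 0.19 without Col-3 gl1 replicate 1 and 0.02 without tmm-1 replicate 2.

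Signals did not overlap between the lines, with tmm-1 lower, for 3 of the 4 genes, beside 16.8% of all tested probe sets. All 4 passed the signal filter, and limma called 1 of them, PORB, beside 0.613% of all tested probe sets. The median log2 change of the 4 was -0.19, beside 0.03 over all tested probe sets. It was -0.02 over the 913 tested probe sets at least as bright as the dimmest of the 4 genes.

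Each gene was also placed by the rank of its signal among the 22746 probe sets that are not array controls. Rank 1 is the brightest, and since probe sets differ in how well they bind, a rank orders signals and not transcript amounts. PORB ranked 974 and 705 on the tmm-1 arrays, against 533 and 465 on the control arrays. Thus 4.28% and 3.10% of probe sets were brighter than PORB in tmm-1, against 2.34% and 2.04% in the control, without overlap.

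LHCB4.1 ranked 280 and 174 in tmm-1, against 166 and 179 in the control, so that tmm-1 replicate 2 lay between the control arrays in rank, although its signal was under both. PRK ranked 996 and 894 in tmm-1, against 871 and 924 in the control, and here too the lines overlapped in rank. RCA ranked 427 and 460 in tmm-1, between its control ranks of 331 and 515. By rank, then, PORB was the one gene of the 4 whose lines did not overlap. Ranks come from the same signals, and the share of all probe sets without overlap in rank was not counted. By signal, 38.3% of all tested probe sets did not overlap in either direction. All 4 genes were among the brightest 5% of probe sets on all 4 arrays.

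Ratios of 2 genes on the same array hardly depend on how the whole array was scaled. The log2 ratio of PORB to LHCB4.1 was -1.52 and -1.51 in tmm-1, against -1.29 and -1.003 in the control. That of PORB to PRK was 0.02 and 0.27 in tmm-1, against 0.58 and 0.80 in the control. In both ratios the lines did not overlap and PORB was relatively lower in tmm-1, with mean differences of -0.37 against LHCB4.1 and -0.54 against PRK. Without Col-3 gl1 replicate 2 that against LHCB4.1 was -0.23. The lack of overlap was not particular to ratios with PORB. The log2 ratio of LHCB4.1 to PRK was 1.54 and 1.78 in tmm-1, against 1.86 and 1.81 in the control, also without overlap.

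Against RCA the log2 ratio of PORB was -1.04 and -0.50 in tmm-1, against -0.58 and 0.14 in the control, and the lines overlapped. The mean difference there was -0.55, and it was -0.19 without Col-3 gl1 replicate 2, -0.28 without tmm-1 replicate 1 and -0.91 without Col-3 gl1 replicate 1. An exact permutation test, two-sided, gave p = 0.33 for the ratios to LHCB4.1 and to PRK, the smallest value that 2 arrays against 2 allow, and 0.67 for the ratio to RCA. Over the 7 ratios computed among these genes and LHCB4.2, the smallest Benjamini-Hochberg adjusted p of the exact tests was 0.778. With 2 arrays a line this test could not have passed a threshold of 0.05 whatever the values.

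**Figure D2:**
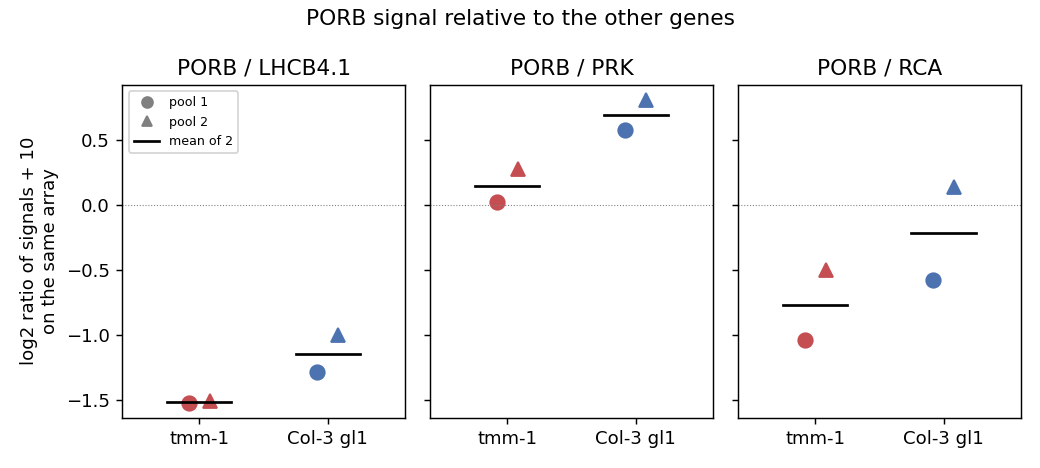
Log2 ratio of PORB signal to that of LHCB4.1, PRK and RCA on the same array (y axis, 10 added to each signal), with tmm-1 in red on the left and Col-3 gl1 in blue on the right. Circles are pool 1, triangles pool 2 and lines the mean of 2 arrays. The tmm-1 arrays lie under both control arrays against LHCB4.1 and PRK and overlap with them against RCA.

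The change in PORB was set beside other genes of the same pathways. Of 155 listed genes 22 were matched to a named probe set, these 4 included, and the others are not analysed here. The signal filter passed all 22. Of the other 18, limma called 0 in either direction, beside 0.613% of all tested probe sets. At that share, 0 calls among 18 genes do not set them apart from other probe sets. An unadjusted p below 0.05 was found for 2 of the 18, beside 8.81% of all tested probe sets. Their log2 changes ran from -0.37 to 0.14 with a median of -0.06. Of these changes 13 were below 0 and 5 above it. Changes below 0 made up 45.0% over all tested probe sets, and 56.5% over the 913 at least as bright as the dimmest of the 4 genes. The lines did not overlap in 5 of the 18, beside 38.3% of all tested probe sets.

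Within chlorophyll synthesis, 8 of 27 listed genes were matched to a named probe set. PORB was the 1 of them called, beside 0.613% of all tested probe sets. GSA1, an aminotransferase that makes the early precursor 5-aminolevulinate, had 260 and 322 in tmm-1, against 388 and 347 in the control. Its log2 change was -0.33 ± 0.16, with an adjusted p of 0.538 in limma. HEME1, a uroporphyrinogen decarboxylase, had 278 and 277 in tmm-1, against 346 and 324 in the control (log2 change -0.26 ± 0.15). In GSA1 and HEME1 the lines did not overlap, with tmm-1 the lower, but neither was called. Signals did not overlap in 4 of the 8 genes, PORB included, beside 38.3% of all tested probe sets.

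CHLM, the methyltransferase of the magnesium branch, and HEMB1, an aminolevulinate dehydratase, overlapped between the lines. CHLM had 758 and 567 in tmm-1, against 807 and 711 in the control, and HEMB1 had 450 and 585 in tmm-1, against 507 and 574 in the control. Over the 8 genes the log2 changes ran from -0.65, that of PORB, to 0.08, with a median of -0.23. NOL, which takes part in chlorophyll b breakdown, was at 97.5 and 123 in tmm-1, against 109 and 119 in the control, and was the 1 named gene of 10 in the breakdown list.

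Among photosystem and electron transport genes 5 of 33 were matched to a named probe set. Limma called 0 of these, beside 0.613% of all tested probe sets, and 0 had an unadjusted p below 0.05, beside 8.81%. Their log2 changes lay between -0.22 and 0.09. The photosystem II subunit genes PSBY and PSBW were at -0.22 ± 0.15 and -0.02 ± 0.14. PSAE-1 and PSAN of photosystem I were at -0.07 ± 0.17 and 0.09 ± 0.14, and ATPC1, the gamma subunit of the chloroplast ATP synthase, was at -0.06 ± 0.14.

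All 5 of these genes, and all 3 named genes of carbon fixation, had more signal in control replicate 1 than in control replicate 2. PSAE-1 had 1903 and 1600 in tmm-1, against 2298 and 1469 in the control, so that its control arrays lay on either side of the tmm-1 arrays, as in RCA. SBPASE, the sedoheptulose-bisphosphatase of the carbon fixation cycle, had 705 and 737 in tmm-1, against 706 and 600.5 in the control (log2 change 0.14 ± 0.14). It and PSAN were the 2 genes of these lists with a higher mean in tmm-1.

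HPR, the hydroxypyruvate reductase of photorespiration, had 804 and 797 in tmm-1, against 994 and 1035 in the control. The replicates were close together in both lines and the lines did not overlap. Its log2 change of -0.34 ± 0.14 was not called (limma, adjusted p = 0.441), although its unadjusted p was 0.0215. HPR was the 1 named gene of 11 in the photorespiration list. HYH, a light-signalling transcription factor gene related to HY5, was the 1 named regulator of 25 and was dim, at 28.7 and 14.7 in tmm-1, against 26.8 and 13.1 in the control.

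**Figure D3:**
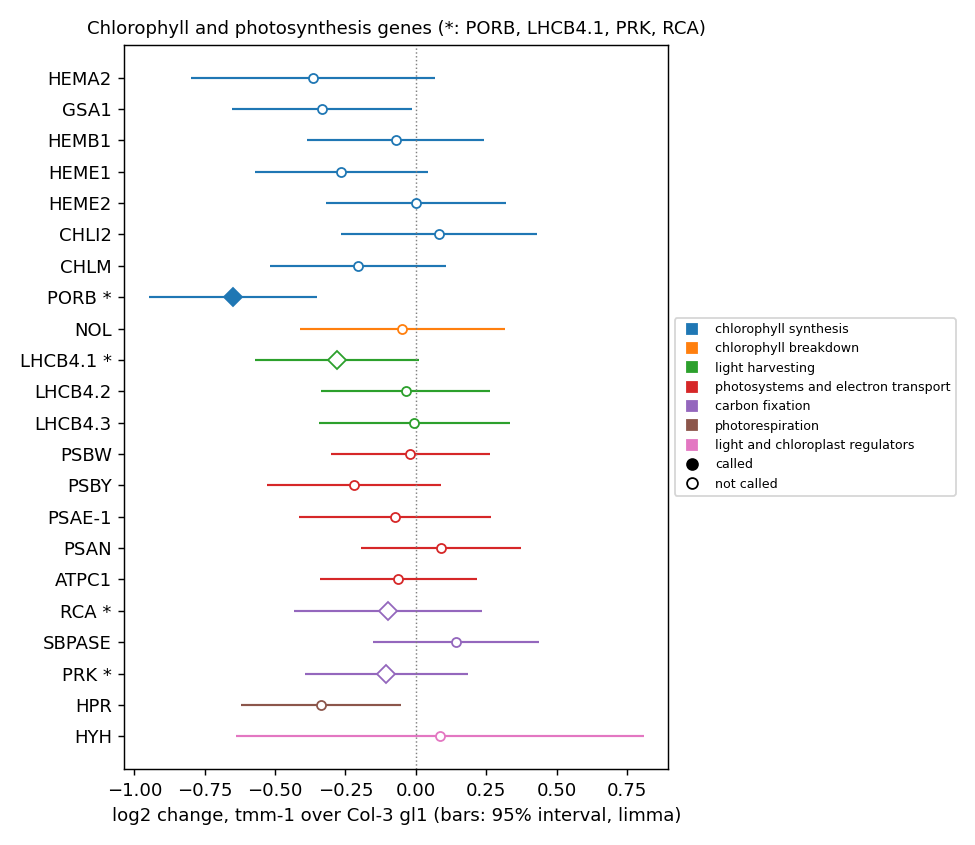
Log2 change in tmm-1 over Col-3 gl1 (x axis) of the 22 chlorophyll and photosynthesis genes with a named probe set, coloured by list, with bars for the 95% interval of the limma model. Diamonds and asterisks mark PORB, LHCB4.1, PRK and RCA, and filled symbols were called. PORB is the 1 filled symbol, at -0.65, and the others lie between -0.37 and 0.14.

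Markers of other cell types were summed over the named genes of each list. The 3 named of 13 anther and pollen genes summed to 113 and 105 in tmm-1, against 124 and 120 in the control, with AMS under the Bacillus signal on all 4 arrays. The 4 named of 9 stomatal lineage genes summed to 228 and 184 in tmm-1, against 222 and 222 in the control, with MUTE under it on all 4 arrays. The anther and pollen sums were lower in tmm-1 without overlap, but TUA1 made up most of them. TUA1 had 81.9 and 84.5 in tmm-1, against 102 and 101 in the control, and was not called in limma. EMS1 had 29.9 and 9.63 in tmm-1, against 21.8 and 16.6 in the control, and it and AMS overlapped between the lines. Within the stomatal list the changes differed in sign and none was called in limma, beside 0.613% of all tested probe sets. EPFL9 had 100.5 and 68.1 in tmm-1, against 105 and 111 in the control, and FAMA had 49.98 and 63.83 in tmm-1, against 69.89 and 63.95 in the control, both lower without overlap. SPCH, with 76.1 and 46.2 in tmm-1, against 46.1 and 45.6 in the control, was higher without overlap. In FAMA and SPCH, though, tmm-1 replicate 2 nearly equalled a control array. Over all tested probe sets, signals did not overlap in 38.3%. The part of these markers in the PORB result was not tested. Vascular markers are not analysed here.

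The probe sets with the most similar pattern were found by the distance between log2 signals over the 4 arrays, after each probe set's mean was subtracted, among 9521 other probe sets of a single locus. Nearest to PORB were AT1G26450, AT1G56610 and AT5G64710, at distances of 0.12, 0.12 and 0.13. The nearest, AT1G26450, had 77.7 and 93.5 in tmm-1, against 144 and 143 in the control. None of these 3 was called in limma.

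Nearest to LHCB4.1 were AT1G15480, AT1G24095 and AT5G12120, at distances of 0.03 to 0.04. For PRK they were AT1G14270, AT1G33840 and AT1G67910, and for RCA they were AT2G35820, AT1G18060 and AT4G14840. AT1G33840 was under the Bacillus signal of 21.2 on all 4 arrays. Among the 4 genes themselves the distances ran from 0.25, between LHCB4.1 and PRK, to 0.84, between PORB and RCA. These distances are not comparable with those to the neighbours, which are the smallest of 9521.

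**Figure D4:**
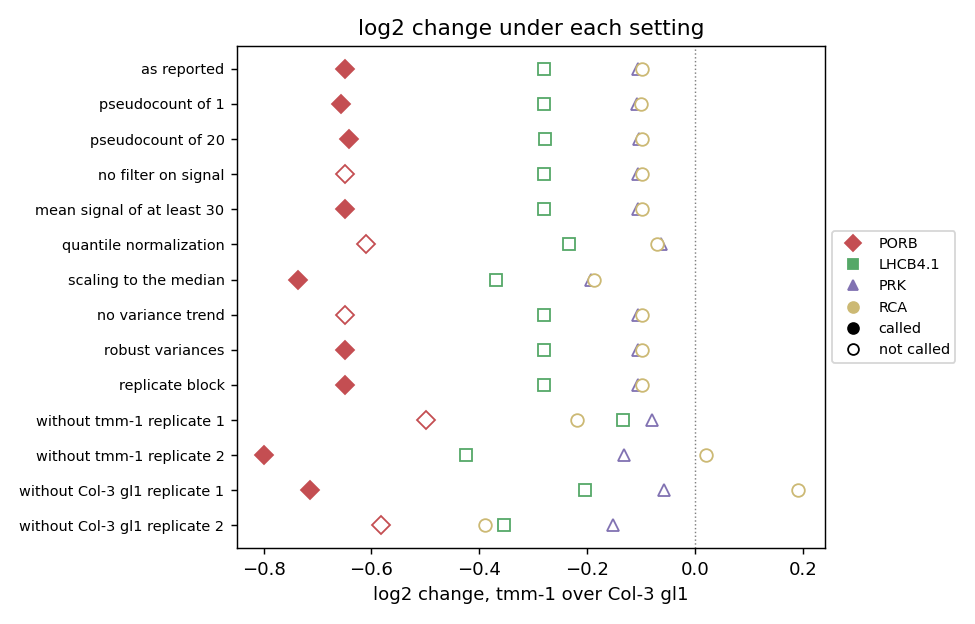
Log2 change in tmm-1 over Col-3 gl1 (x axis) of PORB, LHCB4.1, PRK and RCA as reported and under each alternative (y axis), with filled symbols for an adjusted p below 0.05 in limma. PORB stays between -0.80 and -0.50 and is filled in part of the settings, and RCA lies on either side of 0.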

How the data were processed

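The deposited values are intensities, MAS5 signals on a linear scale, and MAS5 and GCOS are named in the submitters' processing notes. The authors deposited values whose 2% trimmed mean is 100 on all 4 arrays, and no further scaling was applied. Detection calls were not used here. Of 22810 probe sets, the 64 array controls were left out. A value of 10 was added before log2, so changes of dim probe sets are understated. Probe sets with a mean signal of at least 10 entered the test (16960), which was limma 3.58.1 (R 4.3.3; lmFit, eBayes with a variance trend), two-sided, with Benjamini-Hochberg adjustment over all of them. Standard errors and p-values rest mostly on the trend, with 23.6 prior degrees of freedom. Limma was tested on simulated data: false calls stayed near the nominal share with variances drawn from the fitted model, but could exceed it with variances drawn otherwise. The number of arrays limits the precision.

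Replicate numbers are the pool numbers in the labels. Names came from a platform annotation joined by Entrez ID to RefSeq (TAIR10.1). It gave 13513 probe sets a single symbol, of which 13436 matched a locus, and 503 several, and the other 8794 are unnamed here. Each of the 4 genes had 1 named probe set. Listed genes were matched by locus, and 4 pathway genes and 1 marker gene with no listed symbol in RefSeq were left out. The members and lists were chosen with earlier results of these data known. By rule the text names the 4 genes, in each pathway list the called genes, the 3 brightest and the 3 with the smallest p, and the 3 nearest patterns per gene. LHCB4.2's ratio was chosen after the values were seen.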

Additional observations from a re-analysis of the deposited data

How the results depend on the processing

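The 104 probe sets called (0.613% of those tested) became 17 without the signal filter, 69 after quantile normalization, 0 without the variance trend (1293 at an unadjusted p below 0.05) and 162 at an adjusted p below 0.1, and 77 to 662 with an array left out, of which 662 came without tmm-1 replicate 1, and 167 came once tmm-1 replicate 2 was dropped. A lone array is there assumed to vary as the other line does. With an array left out, p-values rest wholly or almost wholly on the trend, at infinite or 1105 prior degrees of freedom. The main fit had 23.6, so counts with an array left out are not comparable with the 104. The listed genes called, 1 as reported, were 0 without the filter, after quantile normalization and without the trend, and 0 to 1 with an array left out, with 0 without tmm-1 replicate 1 or Col-3 gl1 replicate 2. PORB lost its call at a log2 change of -0.65 without the filter or the trend and -0.61 after quantile normalization, and ranged from -0.80 to -0.50 with an array left out. LHCB4.1 ranged from -0.43 to -0.13 and PRK from -0.15 to -0.06 there, and RCA, from -0.39 to 0.19, turned sign to 0.02 without tmm-1 replicate 2 and 0.19 without Col-3 gl1 replicate 1. With an array left out, the differences in PORB ratio were -0.51 to -0.23 against LHCB4.1, -0.67 to -0.42 against PRK and -0.91 to -0.19 against RCA. The causes were not tested.

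A replicate block for the pool gave 191 calls in limma, PORB among them (adjusted p = 0.00138), and no call of the other 3 genes changed. Across probe sets, arrays with the same number deviated from their line means with a correlation of 0.032, and the labels do not say that the number marks a shared day or batch. Averaging several probe sets of a locus was not run, since each of the 4 genes had 1.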

Other observations

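Brightness moved with the sign of the log2 change. Of the 913 tested probe sets at least as bright as the dimmest of the 4 genes, a limit chosen after the data were seen, 516 (56.5%) had a log2 change below 0 in tmm-1 over Col-3 gl1, against 45.0% of all 16960 tested. The median log2 change was -0.02 for the 913 and 0.03 for all tested.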
